A study of Mus musculus with 31 samples.

Results

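Genes of the cell division cycle were followed across the embryonic mouse olfactory and trigeminal nerves. The 48 genes were listed by name for their known roles in the cycle, with earlier results of these data known, and all 48 were found among the 47729 genes listed for the 31 libraries and passed the filter on low counts, which 19332 genes passed in all. They comprise 20 genes of mitosis, 15 of DNA replication and nucleotide supply, 10 that drive G1 or the G1/S transition and 3 inhibitors of cyclin-dependent kinases (CDKs). Each library was made from a laser-microdissected piece of nerve from Sox10:H2BVenus BAC transgenic embryos, which all groups share and in which Sox10-expressing glia carry nuclear Venus fluorescence. The pieces hold everything in the cut area, so olfactory ensheathing cells (OECs, the glia of the olfactory nerve) or Schwann cells were sequenced together with axons, vessels, connective tissue and any cut margin of epithelium or olfactory bulb. The groups include olfactory nerve cut where it crosses the mucosal lamina propria, from embryos of E11.5 (n = 4), E13.5 (n = 7) and E16.5 (n = 4). The olfactory nerve layer (ONL) around the olfactory bulb was cut at E13.5 (n = 5). The 3 further groups of E16.5 are the outer ONL (n = 4), the inner ONL nearest the bulb (n = 4) and the trigeminal nerve (n = 3). Outer and inner ONL were cut by position. The paper reports that these cuts did not divide the OECs of the inner and outer layers by their markers.

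At the 2 early stages the library labels and the group means that the authors published do not name the same libraries. The published means are averages of libraries in an arrangement that matches the labels for 21 of 31 libraries, including all from E16.5, and differs for 10 early ones. The mean of E13.5 ONL holds replicates 1 to 4 that carry the label of E11.5 nerve, with 1 library (replicate 1) labelled as nerve of E13.5. That of E13.5 nerve holds the ONL replicate 1 beside nerve replicates 2 to 7, and that of E11.5 nerve the ONL replicates 2 to 5. Values below follow this arrangement, and the results that use an early group are also given with the libraries grouped by label, except the values of single libraries, marker sums and counts without overlap. Totals of counts ranged from 3512627 to 36705535 per library, with the lowest total in E13.5 ONL. In the early groups more pieces were taken than embryos, so some libraries share an embryo, the files do not say which, and the p-values of every early comparison are too small for that reason. These libraries also enter the spread pooled over all groups, so the p-values of E16.5 comparisons are affected too. The paper states that the E16.5 olfactory and trigeminal pieces were cut from shared sections, a pairing that the main fit does not use. Levels are CPM, counts brought to the same library total, here with edgeR's TMM factors. Under the published arrangement, markers of bulb and forebrain (Emx2, Tbr1, Eomes, Reln and Neurod6) summed to 810.2 to 1112 CPM in E13.5 ONL. In E11.5 nerve, whose libraries are labelled E13.5 ONL, they summed to 71.5 to 89.4 CPM, with Neurod6 at 3 counts or fewer. Glial markers, named below, summed to 4065 to 6270 CPM and 526 to 941 CPM in these groups. Which arrangement is right was not tested. A gene was called where its Benjamini-Hochberg adjusted p, over all genes tested in 1 fit of the 31 libraries, was under 0.05 by edgeR's quasi-likelihood test.

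Passage through the cell cycle is driven by CDKs bound to cyclins. D-type cyclins with Cdk4 or Cdk6 act in G1 and relieve E2F factors of retinoblastoma proteins, cyclin E acts at the G1/S transition, and the licensed Mcm helicase then opens replication origins. Cyclin A and B with Cdk1 lead to mitosis, Plk1 and the Aurora kinases build and correct the spindle, and Cdc20 with Ube2c drives the ubiquitin-dependent exit from it, while p21 (Cdkn1a), p27 (Cdkn1b) and p18 (Cdkn2c) hold CDKs back. In the developing olfactory system, progenitors of the olfactory epithelium and the neural crest-derived glia divide, whereas axons carry no nuclei and add no dividing cells.

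The 2 main groups of genes differ in their promoters as well as in role. RefSeq promoters (GRCm38.p6, 250 bases before to 50 after the start) were matched for 40 of the 48 genes, which gave 45 promoters. On both strands, the word CCAAT was searched, then the cell cycle homology region, spelled TTTGAA, and the E2F words TTTCCCGC, TTTCGCGC, TTTGCCGC and TTTGGCGC. TTTGAA stood in 12 of 17 promoters of mitosis genes (70.6%) and in 2 of 14 promoters of replication genes (14.3%), against 17.9% of all 32851 promoters. An E2F word stood in 6 of 14 replication promoters (42.9%) and in 1 of 17 mitosis promoters (5.88%), against 2.26% of all. CCAAT was frequent in both, at 88.2% and 71.4% against 37.4%. The stretches from 150 bases before to 20 bases after the start are shown for 3 mitosis genes, 1 replication gene and 1 E2F gene whose levels are described below, because they carry these words (in capitals, on either strand). They lie at chr4:118437324-118437493 (Cdc20), chr9:70421535-70421704 (Ccnb2), chr10:69352893-69353062 (Cdk1), chr1:128359686-128359855 (Mcm6) and chr7:48881577-48881746 (E2f8), all on the minus strand, and are written 5′ to 3′ along the gene.
Cdc20: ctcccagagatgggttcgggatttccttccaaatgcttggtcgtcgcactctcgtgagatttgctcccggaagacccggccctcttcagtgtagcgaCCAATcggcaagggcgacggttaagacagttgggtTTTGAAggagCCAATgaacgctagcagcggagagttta
Ccnb2: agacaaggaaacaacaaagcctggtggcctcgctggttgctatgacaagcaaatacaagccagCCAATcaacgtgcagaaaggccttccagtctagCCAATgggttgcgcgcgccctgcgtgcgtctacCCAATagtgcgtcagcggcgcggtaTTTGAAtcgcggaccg
Cdk1: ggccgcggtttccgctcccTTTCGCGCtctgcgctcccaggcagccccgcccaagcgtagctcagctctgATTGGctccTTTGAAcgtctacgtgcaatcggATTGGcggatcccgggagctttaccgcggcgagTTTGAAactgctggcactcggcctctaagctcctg
Mcm6: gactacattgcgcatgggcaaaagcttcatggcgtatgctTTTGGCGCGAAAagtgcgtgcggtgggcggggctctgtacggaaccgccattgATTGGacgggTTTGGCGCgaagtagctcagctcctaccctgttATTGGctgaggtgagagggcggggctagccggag
E2f8: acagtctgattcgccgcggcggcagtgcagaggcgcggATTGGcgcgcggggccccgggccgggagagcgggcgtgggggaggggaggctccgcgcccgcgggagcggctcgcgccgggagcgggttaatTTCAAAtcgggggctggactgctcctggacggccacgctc
In Cdc20 and Ccnb2 the capitals are CCAAT and TTTGAA words. Cdk1 has an E2F word, the homology region 2 times and ATTGG, which is CCAAT read from the other strand. In Mcm6 the capitals are E2F words, 2 of which overlap on opposite strands, and ATTGG. E2f8, itself an E2F factor, has TTTGAA read on the other strand (TTCAAA). A match of letters is a description and not a binding site.

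The summed level of the 20 mitosis genes was highest in the outer ONL at E16.5 as a mean of the libraries, and lowest in the E13.5 ONL, or by label in E11.5 nerve. It was 5164, 3719, 4401 and 3944 CPM in the 4 outer ONL libraries. In the 5 libraries of E13.5 ONL it was 2888, 2188, 2414, 3060 and 2915 CPM. These libraries did not overlap with those of the outer ONL. In E16.5 olfactory nerve the sum was 3115, 2705, 3097 and 2663 CPM, again below every outer ONL library, whereas in the 7 libraries of E13.5 olfactory nerve it ran from 3532 through a median of 3882 to 4712 CPM. The 15 replication genes summed to 3143 ± 593 CPM (SD, n = 4) in outer ONL, 2940 ± 416 CPM (SD, n = 4) in inner ONL, 2546 ± 49.3 CPM (SD, n = 3) in trigeminal nerve and 1933 ± 311 CPM (SD, n = 4) in olfactory nerve at E16.5. At E13.5 they summed to 1888 ± 277 CPM (SD, n = 5) in ONL and 2312 ± 295 CPM (SD, n = 7) in nerve, and in E11.5 nerve to 2495 ± 588 CPM (SD, n = 4). By label, the mitosis genes summed to 2638 ± 406 CPM (SD, n = 4) in E11.5 nerve, 3841 ± 563 CPM (SD, n = 7) in E13.5 nerve and 3379 ± 502 CPM (SD, n = 5) in E13.5 ONL, whose highest library (3917 CPM) lay above the lowest of outer ONL. The replication genes then summed to 1879 ± 320 CPM (SD, n = 4), 2280 ± 327 CPM (SD, n = 7) and 2426 ± 533 CPM (SD, n = 5). In bulk tissue, fewer dividing cells and less RNA per dividing cell cannot be told apart.

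**Figure D1:**
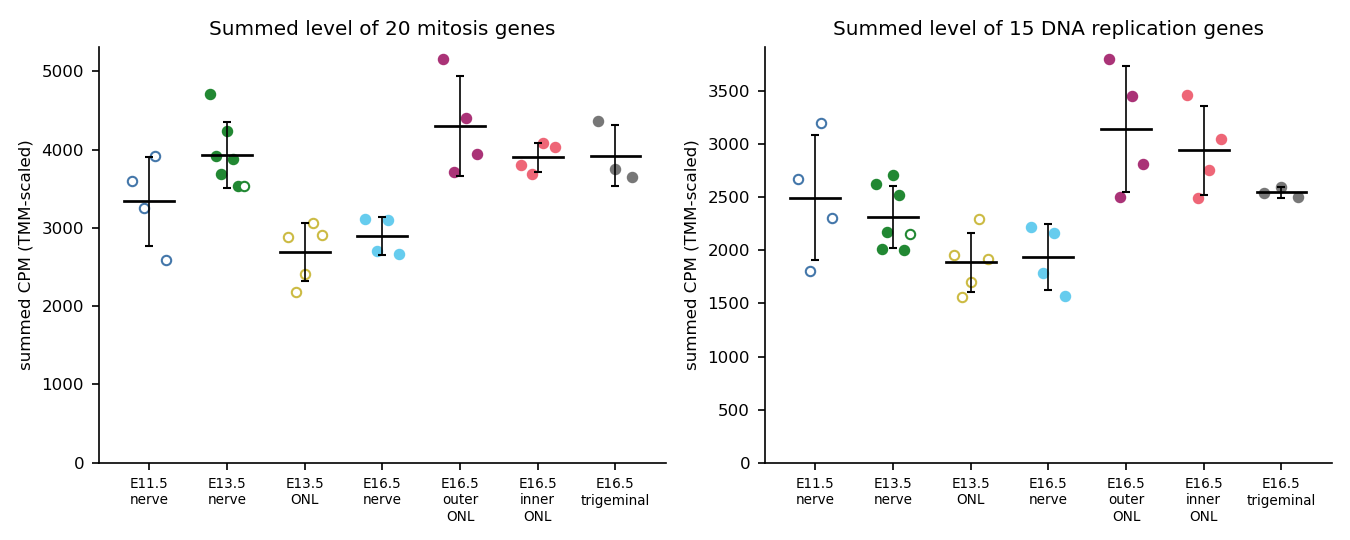
Summed CPM (TMM-scaled) of the 20 mitosis genes (left) and the 15 DNA replication genes (right) in each of 31 libraries, by group. Each point is a library, open where its label names another group, and bars are means with SD. For mitosis genes the outer ONL libraries (3719 to 5164 CPM) all lie above those of E16.5 olfactory nerve (2663 to 3115 CPM) and E13.5 ONL (2188 to 3060 CPM, but up to 3917 CPM by label).

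By gene, the group with the highest mean was the outer ONL for 20 of the 48 genes, trigeminal nerve for 10, and E11.5 and E13.5 olfactory nerve for 7 each. The group with the lowest mean was E13.5 ONL for 22 genes and E16.5 olfactory nerve for 14. By label, the highest was the outer ONL for 21 and trigeminal nerve for 11, and the lowest was E11.5 nerve for 25 and E16.5 nerve for 15. For mitosis genes the highest and lowest group means lay 1.48-fold (Birc5) to 2.29-fold (Plk1) apart, and for replication genes 1.53-fold (Mcm7) to 2.37-fold (Mcm3). Several G1 genes and inhibitors spread further, with 8.45-fold for Ccnd3, 9.76-fold for Cdk6 and 11.49-fold for Cdkn2c, while the means of Cdk4 spread 1.545-fold. By label these were 8.45-fold, 7.24-fold, 5.28-fold and 1.49-fold, and the ranges 1.43-fold (Cenpe) to 2.41-fold (Plk1) for mitosis and 1.49-fold (Tyms) to 2.39-fold (Mcm3) for replication genes. Within a group, libraries tended to be high or low for many genes at once. In outer ONL, replicate 1 held the highest level of 12 of 20 mitosis and 11 of 15 replication genes, and replicate 2 the lowest of 15 and 10. In E16.5 olfactory nerve, replicate 4 was the lowest for 10 of 20 mitosis and 10 of 15 replication genes.

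**Figure D2:**
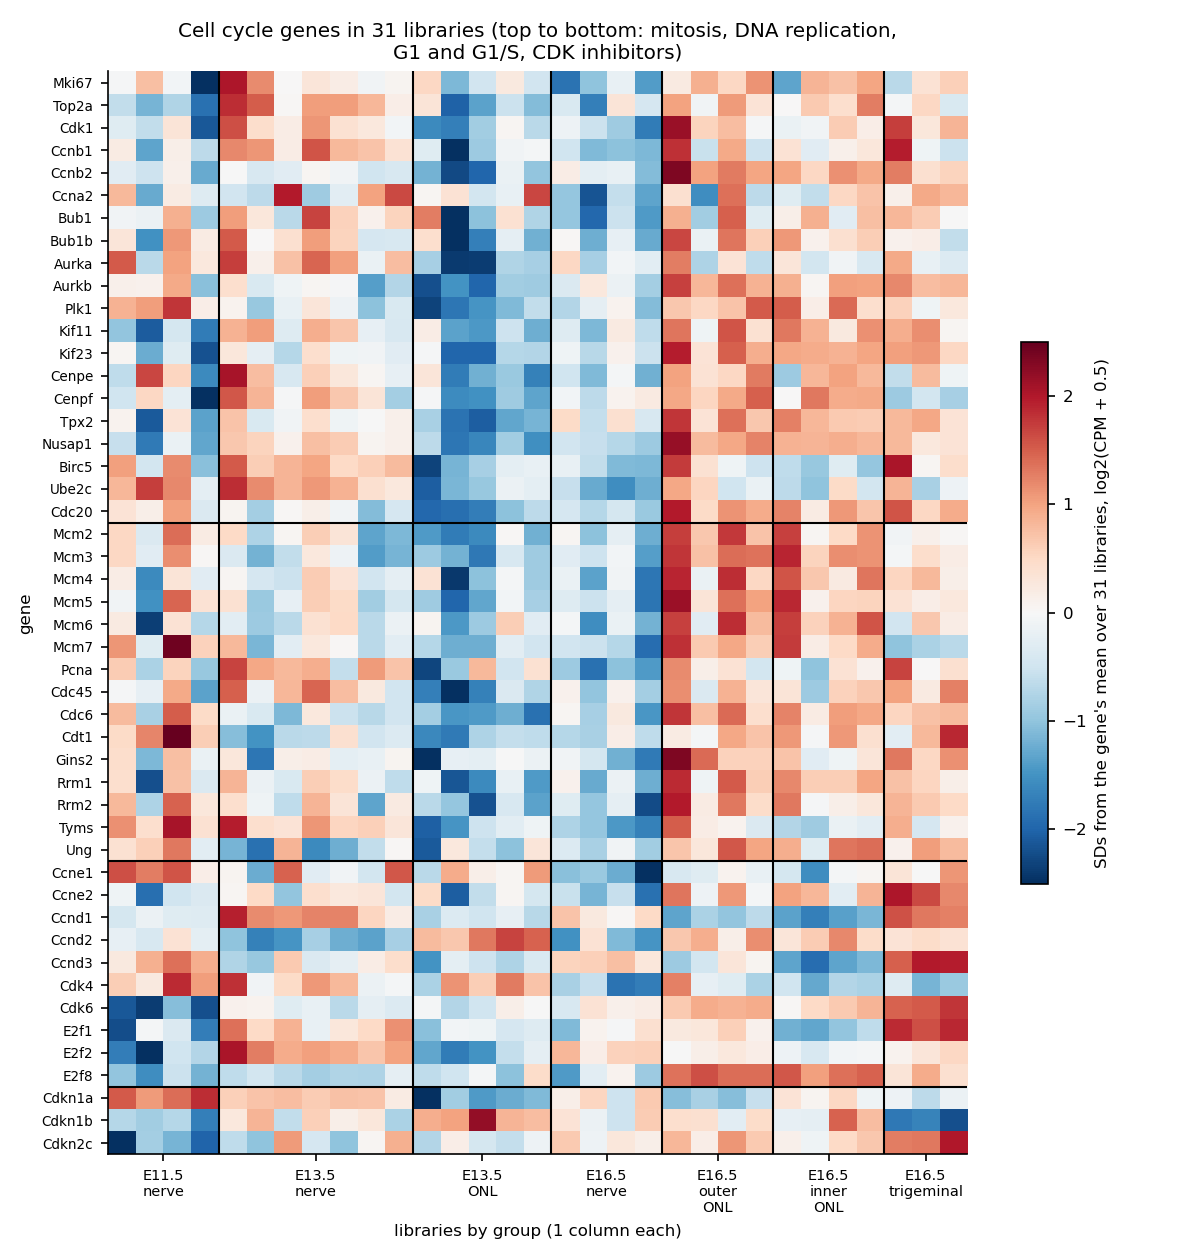
Levels of the 48 genes (rows, ordered by role) in 31 libraries (columns, by group), as SDs from each gene's own mean over the libraries on a log2 scale. Red is above and blue below the mean. The mitosis and replication blocks are mostly red in outer and inner ONL and mostly blue in E13.5 ONL and E16.5 olfactory nerve, and the G1 and inhibitor rows each follow another pattern.

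At E16.5, genes of replication and mitosis were higher in the outer ONL than in the olfactory nerve of the mucosa. Of the 48 genes 29 were called higher, against 10.2% of all genes tested, and 2 were called lower, against 11.8%. The median log2 fold change of the 48 genes was 0.61, against 0.01 over all genes. By role, 13 of 15 replication genes, 12 of 20 mitosis genes and 4 of 10 G1 genes were called higher, and all 35 mitosis and replication genes had log2 fold changes above 0. The libraries of both groups did not overlap for 25 genes that were higher in outer ONL, against 11.4% of all genes, and for 2 that were lower, against 12.9%. When only these 8 libraries were fitted and their replicate number was a block, 38 of the 48 were called higher (15.3% of all genes in that fit) and 3 lower (16.2%). In a fit of all E16.5 libraries the block gave 29 higher (10.7%) and 3 lower (16.0%).

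Among replication genes, Mcm3, a subunit of the Mcm helicase, was measured at 324, 220, 280 and 276 CPM in outer ONL and at 151, 139, 164 and 101 CPM in olfactory nerve. All outer ONL libraries were above all nerve libraries, and the log2 fold change was 0.99 ± 0.20 (SE, adjusted p = 0.00041, edgeR's quasi-likelihood test). Its partners Mcm4, Mcm5 and Mcm6 were higher by 0.83 ± 0.23, 0.76 ± 0.20 and 0.85 ± 0.25 on the log2 scale (SE). The libraries of Mcm4 and Mcm6 overlapped, since outer ONL replicate 2 was as low as the highest nerve libraries. Mcm7, Mcm2, Rrm1 and Rrm2 (subunits of ribonucleotide reductase), Tyms (thymidylate synthase), Pcna (the sliding clamp), Gins2, Cdc6 and Ung were also called higher, and Cdc45 and Cdt1 were not called.

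Among mitosis genes, Nusap1, a microtubule-binding protein of the spindle, was at 391, 268, 281 and 303 CPM in outer ONL and at 190, 184, 178 and 168 CPM in nerve. The lowest outer ONL library lay above the highest nerve library, with a log2 fold change of 0.79 ± 0.13 (SE, adjusted p = 4.15e-05, edgeR's quasi-likelihood test). Cdc20 was at 374, 237, 288 and 272 CPM against 181, 165, 180 and 155 CPM (0.78 ± 0.16 on the log2 scale, SE), and cyclin B2 (Ccnb2) at 359, 244, 266 and 243 CPM against 193, 170, 172 and 133 CPM (0.74 ± 0.16). Neither overlapped. Mki67, the widely used proliferation marker, was at 238, 281, 256 and 298 CPM against 141, 174, 214 and 158 CPM, without overlap and with a smaller margin (0.64 ± 0.22 on the log2 scale, SE, adjusted p = 0.0291, edgeR's quasi-likelihood test). The call of Mki67 was lost without any 1 of nerve replicates 1, 2 or 4 or outer ONL replicates 2 or 4 (log2 fold changes 0.55 to 0.65). It was also lost under total count scaling (0.51, adjusted p = 0.116) and upper-quartile scaling (0.60, adjusted p = 0.0555, edgeR's quasi-likelihood test).

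The count of genes called higher rested on 2 libraries more than on the others. Without olfactory nerve replicate 4, 8 of the 48 genes were called higher, and without outer ONL replicate 1, 16 were. Shares over all genes are not given for fits that left out 1 library, here and below. Whether the calls fell for all genes alike therefore cannot be judged. Without nerve replicate 4 the calls of Mki67, Mcm4, Mcm5, Mcm6 and Ccne2 were lost at log2 fold changes of 0.55 to 0.71. Under scaling by total count, which moved the median of all genes from 0.01 to -0.13, 19 were called higher and 3 lower (1427 and 2758 of all 19332 genes). With the early libraries grouped by label in the same fit, 24 were called higher (7.50% of all genes) and 2 lower (8.56%).

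Cyclins D1 and D2 differed in opposite directions in this comparison. Cyclin D1 (Ccnd1) was at 46.5, 62.1, 55.6 and 66.9 CPM in outer ONL and at 145, 112, 98.6 and 128 CPM in nerve, without overlap and lower in outer ONL by 2.09-fold (log2 fold change -1.06 ± 0.20, SE, adjusted p = 0.000135, edgeR's quasi-likelihood test). Cyclin D2 (Ccnd2) was at 1309, 1429, 1081 and 1570 CPM in outer ONL and at 581, 1166, 676 and 588 CPM in nerve, where replicate 2 alone reached the outer ONL range. It was higher in outer ONL by 0.84 ± 0.18 on the log2 scale (SE, adjusted p = 0.000682, edgeR's quasi-likelihood test). Cyclin E2 (Ccne2) was higher by 0.88 ± 0.25, and Cdk6, named here because it completes the 4 higher G1 genes, by 0.71 ± 0.23 on the log2 scale (SE). Without nerve replicate 2 the log2 fold change of Ccnd2 was 1.13. Cyclin D3 (Ccnd3) was at 83.9, 112, 187 and 159 CPM in outer ONL and at 221, 226, 250.4 and 184 CPM in nerve, overlapping and not called (-0.70 ± 0.29 on the log2 scale, SE, adjusted p = 0.0795, edgeR's quasi-likelihood test). In the fit of these 8 libraries with the block it was called lower (-0.78, adjusted p = 0.0136, edgeR's quasi-likelihood test). E2f8, a repressive E2F factor, had the largest difference of the 48 genes, at 34.6, 38.82, 35.4 and 35.4 CPM in outer ONL and 9.41, 16.2, 19.2 and 11.9 CPM in nerve. These were far from overlapping (log2 fold change 1.35 ± 0.21, SE, adjusted p = 1.08e-05, edgeR's quasi-likelihood test). The CDK inhibitor Cdkn1a was lower in outer ONL (32.2, 36.1, 32.0 and 40.2 CPM) than in nerve (56.8, 68.0, 41.3 and 71.5 CPM), by 1.69-fold and without overlap. Cdkn1b had a log2 fold change of 0.07 ± 0.20, with a sign that turned under total count scaling (-0.08), and Cdkn2c of 0.50 ± 0.46 (SE), neither called.

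Other tissue markers moved with this comparison. The summed level of 5 glial markers (Sox10, Fabp7, Erbb3, S100b and Foxd3) ran from 14990 to 26970 CPM in outer ONL and from 1304 to 3184 CPM in nerve, and 4 of 5 were called higher. The 7 mesenchyme markers summed to 4535 to 9295 CPM in outer ONL and 7817 to 14540 CPM in nerve, with 5 of 7 lower. The 5 markers of olfactory epithelium progenitors (Neurog1, Neurod1, Hes6, Sox2 and Fezf1) summed to 32.1 to 44.6 CPM in outer ONL and 132 to 421 CPM in nerve, with 5 of 5 lower. No marker of these lists was at 3 counts or fewer in every library of either group. Their part in the cell cycle differences was not tested.

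Between the inner and the outer ONL, few cell cycle genes were called. Per the paper these pieces did not separate inner from outer OECs, and the inner ones held some bulb tissue. The comparison is therefore between cuts and not between the OECs of the layers. Of the 48 genes 1 was called higher in inner ONL (8.20% of all genes) and 2 lower (5.94%), with a median log2 fold change of -0.12 against -0.05 over all genes. No gene of mitosis or replication was called by edgeR's quasi-likelihood test, where 1 of each was lower at an unadjusted p under 0.05, and DESeq2 called 1 of the 48 higher and 2 lower. Ccnd3 was at 63.1, 42.8, 63.7 and 72.4 CPM in inner and 83.9, 112, 187 and 159 CPM in outer ONL. All inner libraries were lower (log2 fold change -1.16 ± 0.29, SE, adjusted p = 0.00525, edgeR's quasi-likelihood test). E2f1 was at 4.78, 4.51, 5.42 and 6.57 CPM in inner and 10.6, 10.8, 12.9 and 9.89 CPM in outer ONL, also without overlap (-1.05 ± 0.31 on the log2 scale), but its call was lost without inner ONL replicate 1 (-1.002) or 2 (-0.998) or outer ONL replicate 3 (-0.97), which leaves 1 gene called lower. Cdkn1a was higher in inner ONL, at 62.3, 54.5, 67.1 and 50.03 CPM, than the 32.0 to 40.2 CPM of outer ONL (0.74 ± 0.19 on the log2 scale). Ccnd1, Ccnd2, Cdkn1b and Cdkn2c were not called. With early libraries grouped by label, which changes the pooled spread of the fit, 0 genes were called higher (5.21% of all genes) and 1 lower (3.37%), by edgeR's quasi-likelihood test. Ccnd3 kept its call and E2f1 and Cdkn1a did not (adjusted p = 0.0882 and 0.0615, edgeR's quasi-likelihood test). The 7 mesenchyme markers were all lower in inner ONL (761 to 1772 CPM in sum), and the 5 markers of olfactory bulb and forebrain summed to 341 to 720.3 CPM there against 10.4 to 137 CPM in outer ONL, and their part was not tested.

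Trigeminal nerve, the nerve of Schwann cells, was higher in G1 genes. Of the 48 genes 19 were called lower in olfactory than in trigeminal nerve (10.6% of all genes) and 1 higher (13.0%), and 8 of these 19 were among the 10 G1 genes, with 6 of 20 for mitosis and 4 of 15 for replication. The median log2 fold change was -0.49 over the 48 genes, -1.01 over the G1 genes and -0.01 over all genes. Cdk6 was at 68.0, 71.2 and 83.1 CPM in trigeminal nerve and 19.9, 32.8, 28.5 and 29.5 CPM in olfactory nerve, which did not overlap (lower by 2.68-fold in olfactory nerve). E2f1 (25.1, 22.0 and 25.4 CPM against 5.07 to 11.52 CPM) and Ccne2 (92.1, 80.1 and 68.0 CPM against 21.5 to 35.2 CPM) were lower by 2.72-fold and 2.67-fold. Cdkn1b, by contrast, was higher in olfactory nerve, at 11.6, 10.1, 9.04 and 12.6 CPM against 6.31, 6.53 and 5.59 CPM (0.82 ± 0.21 on the log2 scale, SE). Cdkn2c was lower by 1.43 ± 0.49 (log2 fold change -1.43, SE), and it had 18.6, 18.9 and 31.8 CPM in trigeminal nerve. Cdc20 was lower by 1.65-fold without overlap. Ccna2, Cdk1, Pcna, Gins2, Cdt1, Ccnd2 and Cdkn2c were also called lower, and each lost the call without at least 1 library. Mki67 (log2 fold change -0.43 ± 0.23) and Mcm5 (-0.37 ± 0.22) were not called. Ccnd1 was also called lower, and Cdkn1a was not called. Under total count scaling, which moved the median of all genes to 0.24, 6 were called lower and 2 higher (1096 and 3770 of all 19332 genes). There Ccnd1 lost its call (-0.55, adjusted p = 0.0541) and Cdkn1a was called higher (0.63, adjusted p = 0.0227, edgeR's quasi-likelihood test). Without olfactory nerve replicate 4, 9 were called lower, without trigeminal nerve replicate 1, 11, and with early libraries grouped by label 12 (7.82% of all genes) with 1 higher (10.01%). Olfactory epithelium progenitor markers summed to 132 to 421 CPM in olfactory and 26.4 to 31.1 CPM in trigeminal nerve (4 of 5 called higher). Neuronal markers summed to 759 to 1342 CPM against 523 to 581 CPM (4 of 6 higher). Glial markers summed to 1304 to 3184 CPM against 668 to 734 CPM (1 of 5 higher and 2 lower), yet their median log2 fold change was -0.575. Mesenchyme markers summed to 7817 to 14540 CPM against 22110 to 26460 CPM (3 of 7 lower). The part of these markers was not tested.

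Set against trigeminal nerve, the outer ONL was lower in cyclins D1 and D3, E2f1 and Cdk6, and few other cell cycle genes were called. In all, 5 were called higher (13.54% of all genes) and 4 lower (12.3%), with a median log2 fold change of 0.12 against 0.01. Ccnd1 at 237, 202 and 198 CPM in trigeminal nerve was 3.68-fold lower in outer ONL (adjusted p = 3.55e-08, edgeR's quasi-likelihood test). Ccnd3, at 410, 563 and 561 CPM in trigeminal nerve, was 3.77-fold lower (adjusted p = 1.7e-05, edgeR's quasi-likelihood test). Neither overlapped. E2f1 was 2.19-fold lower, and Cdk6, which completes the 4 lower genes, 1.64-fold. Cdkn1b (0.88 ± 0.22 on the log2 scale), Cenpf (0.70 ± 0.21), Mcm7 (0.59 ± 0.17), Mcm3 (0.61 ± 0.22) and E2f8 (0.58 ± 0.22), named to complete the 5, were called higher. Mki67, Mcm5, Ccnd2 and Cdkn1a were not called. Cdkn2c (-0.92 ± 0.48 on the log2 scale, SE) was not called, but it was called lower when E16.5 libraries alone were fitted, without the block (-0.94, adjusted p = 0.0168) and with it (-0.99, adjusted p = 0.00572, edgeR's quasi-likelihood test). The call of Mcm3 was lost without outer ONL replicate 1, 3 or 4 or trigeminal nerve replicate 1 or 3, and that of Cenpf without trigeminal nerve replicate 1 or 3. Without any 1 of outer ONL replicates 1, 3 and 4, 3 genes were called higher, and without trigeminal nerve replicate 1 or 3, 2. With early libraries grouped by label 3 were higher (10.6% of all genes) and 3 lower (9.70%). The comparisons of outer ONL and of olfactory nerve with trigeminal nerve share their trigeminal libraries. Glial markers summed to 14990 to 26970 CPM in outer ONL and 668 to 734 CPM in trigeminal nerve (2 of 5 called higher). Their median log2 fold change was 0.82. Mesenchyme markers summed to 4535 to 9295 CPM against 22110 to 26460 CPM (5 of 7 lower). Bulb and forebrain markers summed to 10.4 to 137 CPM against 185 to 212 CPM, yet 4 of 5 were called higher in outer ONL and 1 lower. Among them, Neurod6 was at 3 counts or fewer in every trigeminal library. The part of these markers was not tested.

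**Figure D3:**
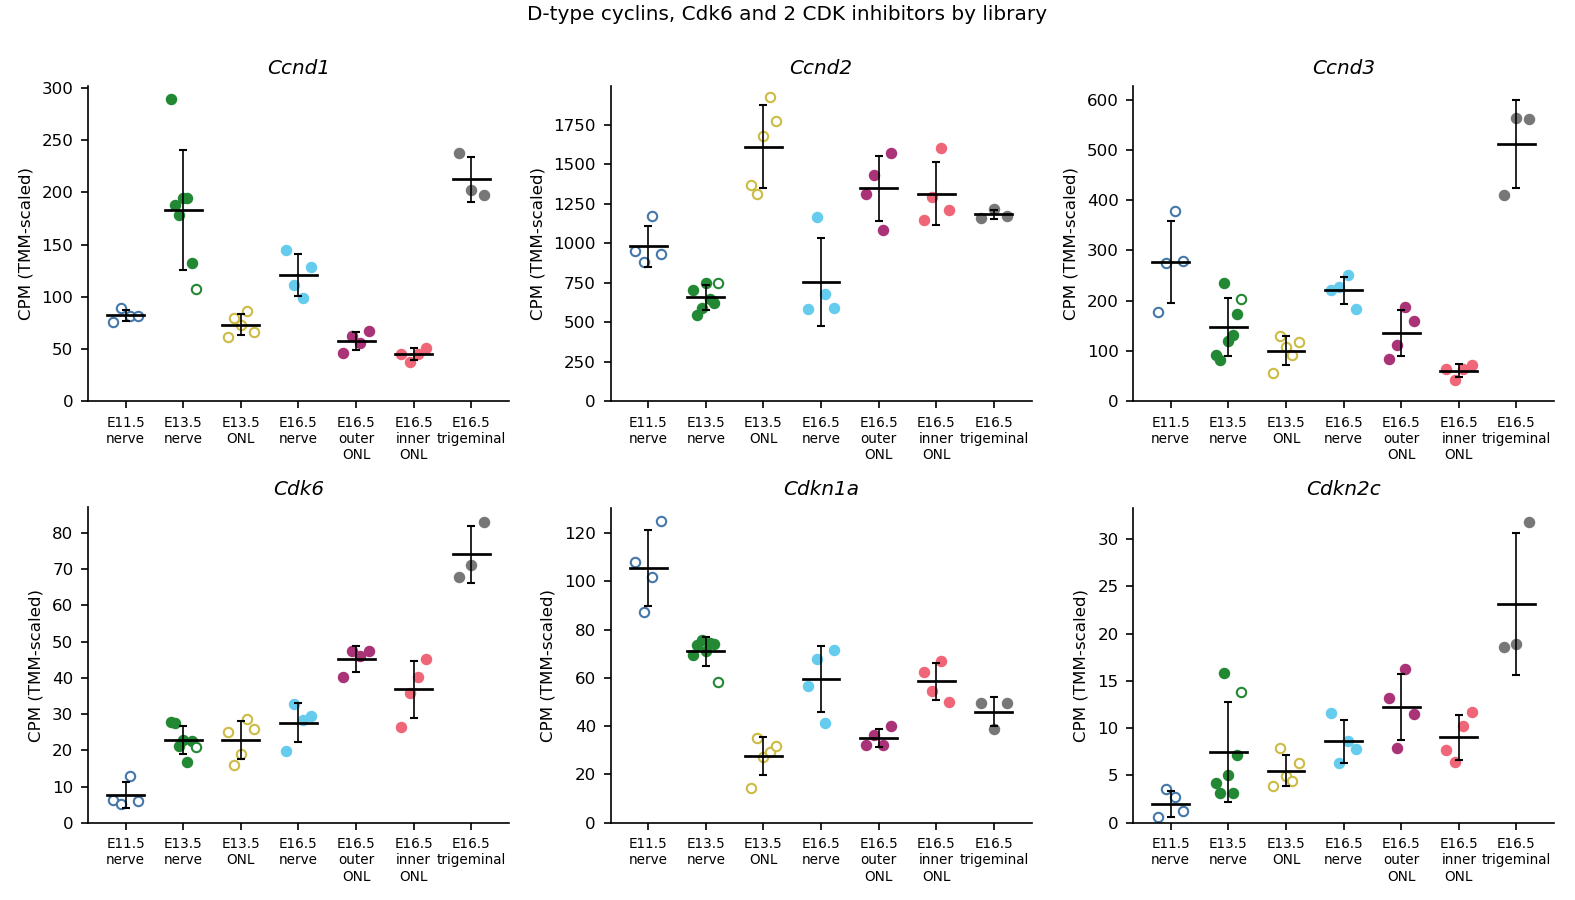
CPM (TMM-scaled) of 3 D-type cyclins, Cdk6 and 2 CDK inhibitors in each of 31 libraries by group, with means and SD. Open points are libraries whose label names another group. Ccnd1 lies at 37.3 to 66.9 CPM in all ONL libraries of E16.5 and at 98.6 CPM or more in both E16.5 nerves, whereas Ccnd2 is lowest in E13.5 and E16.5 olfactory nerve.

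On a scale per length of exons, cyclin D2 was the most abundant D-type cyclin in every group. Its mean level was 171 CPM per kb in E13.5 ONL, 143 in outer ONL, 140 in inner ONL, 126 in trigeminal nerve, 104 in E11.5 nerve, 80.0 in E16.5 nerve and 69.9 in E13.5 nerve. Cyclin D1 ran in another order, from 45.1 CPM per kb in trigeminal nerve and 38.9 in E13.5 nerve through 25.7 in E16.5 nerve to 17.4 in E11.5 nerve, 15.6 in E13.5 ONL, 12.3 in outer ONL and 9.54 in inner ONL. Cyclin D3 was at 58.3 CPM per kb in trigeminal nerve and at 6.89 in inner ONL. Neighbours in the order of Ccnd1 had overlapping libraries, except E16.5 nerve, whose libraries were all above those of E11.5 nerve. By label, the means of Ccnd2 were 167 CPM per kb in E11.5 nerve, 99.4 in E13.5 ONL and 85.4 in E13.5 nerve, which changes its order, and those of Ccnd1 were 16.0, 18.5 and 37.7. Exons of Ccnd1, Ccnd2 and Ccnd3 overlap genes on the opposite strand (Ccnd1 with LTO1 over 1100 bases and Ccnd3 with Bysl over 361), and the kit used does not mark strand, so reads there cannot be assigned to 1 of the genes.

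At E13.5 the difference between ONL and nerve ran the other way. There 26 of the 48 genes were called lower in ONL than in olfactory nerve (16.1% of all genes) and 2 higher (15.4%), with a median log2 fold change of -0.44 against -0.03 over all genes. Of the 20 mitosis genes 17 were called lower, of the 15 replication genes 5 and of the 10 G1 genes 3. The libraries did not overlap for 10 of the lower genes (9.67% of all genes). Nusap1 was at 181, 132, 139, 170 and 143 CPM in ONL and at 220 CPM at the lowest, 251 at the median and 265 at the highest in nerve, so that every ONL library was below every nerve library (log2 fold change -0.67 ± 0.11, SE, adjusted p = 1.69e-05, edgeR's quasi-likelihood test). Aurka (Aurora A, a spindle pole kinase) was at 93.0, 62.0, 62.3, 94.8 and 93.2 CPM in ONL and at 111 to 181 CPM in nerve (median 141), again without overlap (-0.84 ± 0.16 on the log2 scale). Ube2c was lower by 0.76 ± 0.16 (log2 fold change -0.76, SE). Of the replication genes Cdc45 (-0.58 ± 0.14), Rrm1 (-0.47 ± 0.18) and Cdc6 (-0.45 ± 0.16) were the largest, with overlapping libraries, and the calls of Rrm1 and Cdc6 were lost without several single libraries. Mki67 (-0.30 ± 0.18) and Mcm5 (-0.34 ± 0.17) were not called.

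The largest differences at E13.5 were those of G1 genes and Cdkn1a. Ccnd1 was at 61.4, 80.1, 73.2, 86.2 and 66.2 CPM in ONL and at 108 to 289 CPM in nerve (median 188), and Ccnd2 at 1371, 1314, 1676, 1922 and 1772 CPM in ONL and at 544 to 750 CPM in nerve (median 646). Both were without overlap and in opposite directions, with log2 fold changes of -1.32 ± 0.17 (adjusted p = 2.18e-07) and 1.29 ± 0.14 (adjusted p = 2.33e-08, edgeR's quasi-likelihood test). E2f2 was at 3.02 to 8.31 CPM in ONL and 14.6 to 33.1 CPM in nerve (-1.92 ± 0.29 on the log2 scale). Cdkn1a was 2.55-fold lower in ONL (14.4 to 35.0 CPM against 58.1 to 75.8 CPM), and Cdkn1b was higher by 0.42 ± 0.16 on the log2 scale, a call lost without any 1 of 7 libraries, which leaves 1 gene called higher. Cdkn2c, at -0.44 ± 0.39, was not called.

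With the libraries grouped by label, these results changed. In that grouping 6 of the 48 genes were called lower in E13.5 ONL (8.81% of all genes) and 3 higher (8.88%), with a median log2 fold change of -0.09. Ccnd1 (-1.02) and E2f2 (-1.39) were called lower in both groupings. Cdc45 (-0.23, adjusted p = 0.248) and Rrm1 (-0.13, adjusted p = 0.669, edgeR's quasi-likelihood test) lost their calls by label. Nusap1 (-0.36, adjusted p = 0.0671), Aurka (-0.01), Ube2c (-0.04) and Ccnd2 (0.22, adjusted p = 0.528, edgeR's quasi-likelihood test) were not called by label, and Cdkn1a (0.52), Cdc6 (0.47) and Mcm5 (0.09) changed sign without a call. Cdkn1b was called lower by label (-0.53, adjusted p = 0.0226), and the 3 called higher were Ccnd3 (0.95), Cdt1 (0.72) and Plk1 (0.55, adjusted p = 0.0228, edgeR's quasi-likelihood test), the last called lower in the other grouping (-0.54). At this stage olfactory epithelium progenitor markers summed to 330.1 to 629 CPM in nerve and 98.2 to 153 CPM in ONL, neuronal markers to 958 to 1698 CPM in nerve and 3254 to 5265 CPM in ONL, and bulb and forebrain markers to 65.2 to 99.3 CPM in nerve, where Eomes was at 3 counts or fewer, and 810.2 to 1112 CPM in ONL. The glial markers summed to 424 to 932 CPM in nerve and 4065 to 6270 CPM in ONL. The part of these tissues in the cell cycle differences was not tested.

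**Figure D4:**
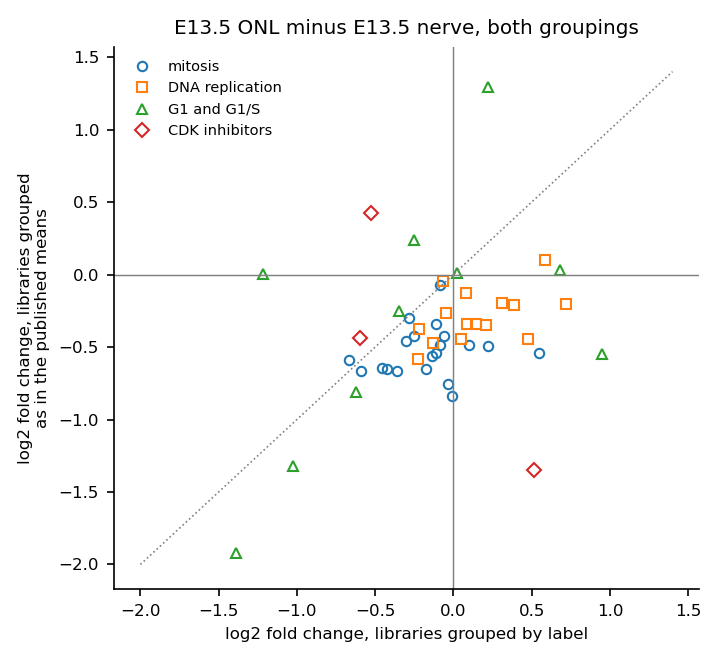
Log2 fold change of each of the 48 genes between ONL and olfactory nerve of E13.5, with libraries grouped by label (horizontal axis) and as in the published means (vertical axis), by role. The dotted line marks equal values. Most points lie below 0 on the vertical axis and closer to 0 on the horizontal axis, and Cdkn1a changes sign.

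Along the olfactory nerve from E11.5 to E13.5, the shares of cell cycle genes called were near those of all genes. Of the 48, 12 were called higher at E13.5 (20.2% of all genes) and 9 lower (16.4%), and the median log2 fold change was 0.12 against 0.05. Among the 10 G1 genes 4 were higher and 2 lower. Cdk6 was at 6.31, 5.24, 12.9 and 5.95 CPM at E11.5 and at 16.7 to 27.9 CPM at E13.5 (median 22.5), without overlap (log2 fold change 1.59 ± 0.22, SE, adjusted p = 1.42e-06, edgeR's quasi-likelihood test). E2f2 rose from 1.63 to 6.97 CPM at E11.5 to 14.6 to 33.1 CPM (2.17 ± 0.31 on the log2 scale), Ccnd1 by 1.16 ± 0.18, E2f1 by 1.24 ± 0.28 and Cdkn2c by 1.91 ± 0.45 (SE), E2f1 and Cdkn2c with overlapping libraries. Ccnd3, which completes the 2, fell with overlap (-0.91 ± 0.25, and 0.49 by label, not called). Ccnd2 (-0.58 ± 0.15) and Cdkn1a (-0.57 ± 0.16) were lower at E13.5 without overlap, and Cdkn1b was higher by 0.46 ± 0.18, a call lost without several single libraries. Of the 20 mitosis genes 6 were called higher, with Kif11 (0.79 ± 0.19) and Top2a (0.74 ± 0.16) the largest, Plk1 was lower (-0.64 ± 0.17), and 5 of 15 replication genes were lower and none higher, with Cdt1 (-0.82 ± 0.18), Ung (-0.67 ± 0.25) and Mcm3 (-0.53 ± 0.17) the largest. Without the library labelled E13.5 ONL replicate 4, 5 of the 48 were lower and Mcm3 (-0.37) and Ung (-0.50) lost their calls. By label, 18 were higher (9.31% of all genes) and 1 lower (8.18%), with 13 of 20 mitosis, 2 of 15 replication and 2 of 10 G1 genes and 1 of 3 inhibitors higher, and all 35 mitosis and replication genes had log2 fold changes above 0. Plk1 (0.65) and Cdkn1a (1.33) were then called higher, and Cdt1 (0.24), Mcm3 (0.24), Ung (0.07), Mcm5 (0.34) and Cdkn1b (-0.38) changed sign without a call. By label Cdk6 (0.09, adjusted p = 0.868), E2f1 (0.67, adjusted p = 0.189), Cdkn2c (0.27, adjusted p = 0.792) and Kif11 (0.50, adjusted p = 0.0974, edgeR's quasi-likelihood test) lost their calls, while Ccnd1, Ccnd2, E2f2 and Top2a were called in the same direction. Epithelial progenitor markers summed to 159 to 237 CPM at E11.5 and 330.1 to 629 CPM at E13.5, and all 5 endothelial markers were higher at E13.5. Of 7 mesenchyme markers 6 were higher and 1 lower. Neuronal markers summed to 3065 to 3891 CPM at E11.5 and 958 to 1698 CPM at E13.5 (5 of 6 called lower and 1 higher). Of 5 glial markers 3 were lower and 1 higher. The part of these markers was not tested.

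From E13.5 to E16.5, mitosis genes made up most of the cell cycle genes that fell in olfactory nerve. Altogether 14 of the 48 were called lower at E16.5 (13.6% of all genes) and 0 higher by edgeR's quasi-likelihood test, where 1 was higher at an unadjusted p under 0.05 and DESeq2 called 1 higher. The median log2 fold change was -0.29 against -0.02 over all genes. Of the 14 lower genes, 9 were mitosis genes, 2 replication genes and 3 G1 genes. Ube2c was at 277, 227, 208 and 230 CPM at E16.5 and at 354 to 562 CPM at E13.5 (median 423), without overlap (-0.88 ± 0.17 on the log2 scale, SE, adjusted p = 0.000313, edgeR's quasi-likelihood test). Cyclin B1 (Ccnb1, -0.75 ± 0.21), Mki67 (-0.61 ± 0.19), Pcna (-0.67 ± 0.16), Tyms (-0.55 ± 0.12) and Cdk4 (-0.52 ± 0.13) were lower without overlap, and Ccna2 (-0.87 ± 0.28), Ccne1 (-1.13 ± 0.30) and Ccnd1 (-0.60 ± 0.17) with overlap. Calls of Ccna2, Mki67 and Ccnd1 were each lost without at least 1 library. Ccnd2 (0.20 ± 0.15), Mcm5 (-0.23 ± 0.18), Cdkn1a (-0.26 ± 0.16), Cdkn1b (-0.01 ± 0.17) and Cdkn2c (0.19 ± 0.41) were not called. Without E16.5 nerve replicate 4, 8 were called lower and 1 higher, and without E13.5 nerve replicate 4, 1 was called higher. By label, 11 were lower (12.6% of all genes) and 1 higher (12.4%), and Ccnd1 lost its call (-0.55, adjusted p = 0.0627, edgeR's quasi-likelihood test). Mesenchyme markers summed to 3511 to 6368 CPM at E13.5 and 7817 to 14540 CPM at E16.5 (5 of 7 called higher and 2 lower), glial markers to 424 to 932 CPM and 1304 to 3184 CPM (4 of 5 higher), endothelial markers to 211 to 324 CPM and 334 to 749 CPM (3 of 5 higher) and macrophage markers to 107 to 255 CPM and 285 to 581 CPM (5 of 6 higher). None of these sums overlapped, and their part was not tested.

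From the undivided ONL of E13.5 to the outer part of the ONL at E16.5, cell cycle genes rose. As many as 36 of the 48 were called higher in outer ONL at E16.5 than in the E13.5 ONL (21.9% of all genes) and 0 lower (20.01% of all genes) by edgeR's quasi-likelihood test, with 0 lower also at an unadjusted p under 0.05 and by DESeq2, and with a median log2 fold change of 0.64 against 0 over all genes. By role these were 17 of 20 mitosis, 14 of 15 replication and 4 of 10 G1 genes and 1 of 3 inhibitors. The libraries did not overlap for 23 higher genes (17.7% of all genes). Cdc20 was at 113, 116, 122, 151 and 168 CPM in E13.5 ONL and at 237 to 374 CPM in outer ONL (1.13 ± 0.15 on the log2 scale, adjusted p = 5.91e-07, edgeR's quasi-likelihood test). Ccnb2 rose by 1.13 ± 0.15, Plk1 by 1.12 ± 0.18, Cdc6 by 1.19 ± 0.18 (SE), and Mcm3 from 87.0 to 145 CPM at E13.5 to 220 to 324 CPM (1.24 ± 0.19 on the log2 scale). E2f8 (1.16 ± 0.19), E2f2 (1.00 ± 0.31), Cdk6 (0.99 ± 0.22) and Mcm5 (0.87 ± 0.19) rose too. Cdkn2c was called (1.13 ± 0.44), and lost its call without any 1 of several libraries. Mki67 (0.34 ± 0.20), Ccnd1 (-0.35 ± 0.19), Ccnd2 (-0.26 ± 0.17), Cdkn1a (0.34 ± 0.18) and Cdkn1b (-0.37 ± 0.19) were not called. By label, 19 were higher (18.2% of all genes) and 4 lower (17.1%), E2f8, Cdk6, Ccnb2, Cdc20 and Mcm3 stayed called higher, Plk1 (0.04), Mcm5 (0.46), Cdc6 (0.34) and E2f2 (0.57) were not called, and Ccnd2 (0.53) changed sign without a call. The 4 called lower by label were Cdkn1a (-1.45, adjusted p = 2.97e-05), Ccne1 (-0.96), Ccnd3 (-0.95) and Ccnd1 (-0.59), and Cdkn1b was called higher (0.50, adjusted p = 0.0315, edgeR's quasi-likelihood test). The bulb and forebrain markers were all lower in outer ONL (10.4 to 137 CPM against 810.2 to 1112 CPM in sum) and 4 of 5 glial markers higher. Neuronal markers summed to 498 to 1338 CPM in outer ONL against 3254 to 5265 CPM (4 of 6 called lower and 2 higher). Mesenchyme markers summed to 4535 to 9295 CPM against 1786 to 3646 CPM (4 of 7 higher and 1 lower). The part of these markers was not tested.

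**Figure D5:**
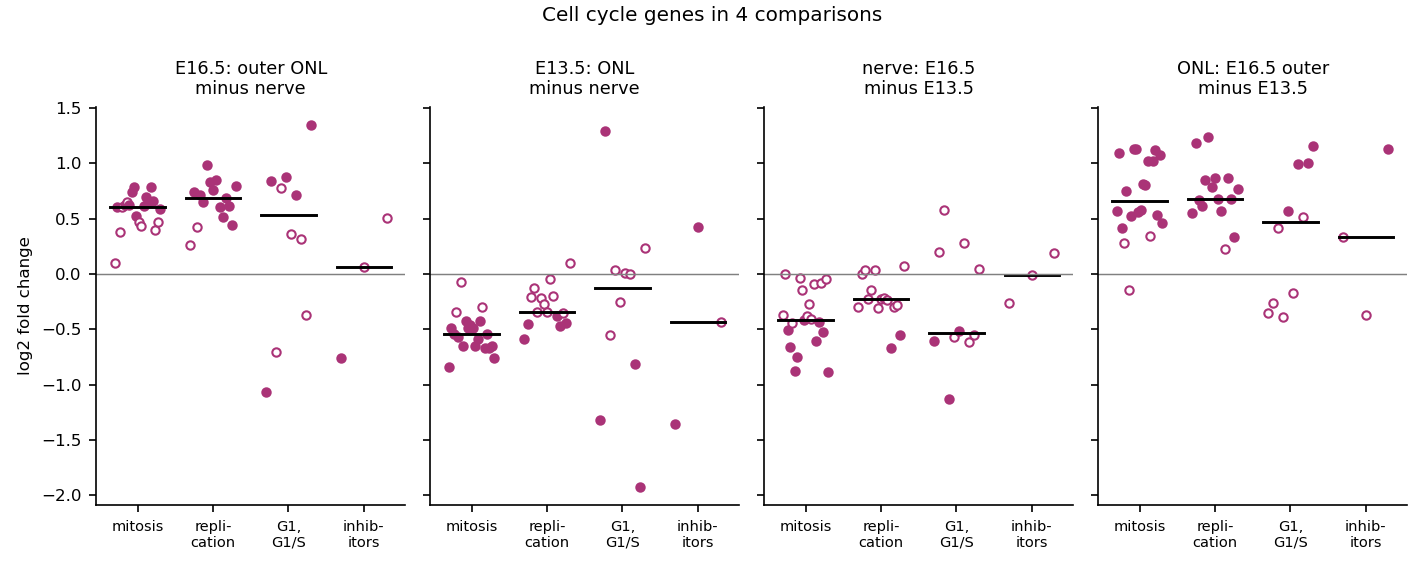
Log2 fold changes of the 48 genes by role in 4 comparisons with the libraries grouped as in the published means, with 1 point per gene, filled where called by edgeR's quasi-likelihood test at an adjusted p under 0.05, and the median of each role as a bar. Mitosis genes lie above 0 in outer ONL against nerve at E16.5 (all 20) and below 0 in ONL against nerve at E13.5 (all 20), and the stage changes run downwards in nerve and upwards in ONL.

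The change from E13.5 to E16.5 differed between ONL and nerve, and this difference was tested by itself. For 34 of the 48 genes the change in ONL (E13.5 ONL to E16.5 outer ONL) exceeded that in nerve (5.59% of all genes), and for 0 the change in nerve was called the larger (6.75% of all genes) by edgeR's quasi-likelihood test, at an unadjusted p under 0.05 or by DESeq2. The calls of Mki67 (without E16.5 nerve replicate 1 or 4, 0.86 and 0.88) and Ccne2 (without nerve replicate 4 or outer ONL replicate 1, 0.98 and 0.97) were lost. The median difference was 0.97 on the log2 scale, against 0.04 over all genes. By role it was called for 19 of 20 mitosis, 12 of 15 replication and 3 of 10 G1 genes and for 0 of 3 inhibitors. Nusap1 had the difference with the smallest adjusted p (1.46 ± 0.17 on the log2 scale, SE, adjusted p = 1.4e-06, edgeR's quasi-likelihood test), followed in size among mitosis genes by Ube2c (1.34 ± 0.25), Ccnb1 (1.27 ± 0.29) and, lower, Mki67 (0.95 ± 0.28). Mcm3 (1.20 ± 0.26), Cdc6 (1.19 ± 0.25), Rrm1 (1.16 ± 0.28) and Mcm5 (1.10 ± 0.27) led the replication genes, and E2f2 (1.55 ± 0.43), Ccne2 (1.14 ± 0.32) and E2f8 (1.11 ± 0.27) the G1 genes. For the D-type cyclins Ccnd1 (0.25 ± 0.25) and Ccnd2 (-0.45 ± 0.23) and the inhibitors Cdkn1a (0.59 ± 0.24), Cdkn1b (-0.36 ± 0.25) and Cdkn2c (0.94 ± 0.60) the difference was not called. By label, the stage changes differed for 13 genes in favour of ONL (6.83% of all genes) and for 2 in favour of nerve (5.71%), which were Ccnd3 (-1.65, adjusted p = 0.00363) and Cdkn1a (-1.27, adjusted p = 0.00772, edgeR's quasi-likelihood test). Nusap1, Ccnb1, Mki67, Ccne2 and E2f8 were called in both groupings, and Ube2c (0.62), Mcm3 (0.60), Mcm5 (0.67), Cdc6 (0.27), Rrm1 (0.82) and E2f2 (1.02) were not called by label.

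A further list of 95 cell cycle genes, of which 94 were tested, is given by counts. It holds other kinesins, kinetochore and condensin subunits, origin and polymerase subunits, E2F and retinoblastoma family members and checkpoint genes. In outer ONL against olfactory nerve at E16.5, 39 were called higher (10.2% of all genes) and 2 lower (11.8%). The spindle protein Ckap2 (1.07 ± 0.17 on the log2 scale, SE), Uhrf1 (0.92 ± 0.19), Chaf1b (0.88 ± 0.18) and Pbk (0.81 ± 0.17) were the largest. Against trigeminal nerve, 26 were lower in olfactory nerve (10.6% of all genes) and 0 higher (13.0%) by edgeR's quasi-likelihood test. The fit of E16.5 libraries with a block called 22 lower and 1 higher, for which shares over all genes are not given. In E13.5 ONL against nerve, 37 were lower (16.1% of all genes) and 5 higher (15.4%). By label these were 6 (8.81% of all genes) and 6 (8.88%). From E13.5 to E16.5 in ONL, 52 were higher (21.9% of all genes) and 10 lower (20.01%), and by label 26 (18.2%) and 14 (17.1%). Rb1, the retinoblastoma gene (-1.44 ± 0.24), and Mycn, a proliferation-linked Myc family factor (-2.21 ± 0.27), fell there, while Prc1 (1.43 ± 0.19) and Pold1 (1.71 ± 0.21) rose. Mycn was also higher in inner than in outer ONL (1.80 ± 0.27), where the CDK inhibitor Cdkn1c was lower (-2.47 ± 0.49). The stage change in ONL exceeded that in nerve for 57 of the 94 (5.59% of all genes) and was below it for 1 (6.75%). By label these were 20 (6.83% of all genes) and 1 (5.71%).

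Reads of some members cannot be assigned without doubt. Exons of 17 of the 48 genes overlap another annotated gene, Ccne2 with Ints8, Cdc20 with Elovl1, Cdk4 with Tspan31, Nusap1 with Oip5 over 172 bases and Gins2 with Gse1 over 2758 bases among them. The values of these genes hold any reads that the counting gave to the shared bases.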

How the data were processed

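For 31 libraries the authors deposited gene-level read counts, made from laser-microdissected tissue with the SMART-seq V4 kit and Nextera XT, aligned with TopHat2 2.1.0 to mm10 and counted with HTSeq, per the labels (the strand setting is not given in the sources used here, and the kit does not mark strand). 1 row without a gene was dropped. The published group means equal averages of libraries in the arrangement used here for 31 of 31 libraries, with a largest difference of 0.00081%. The 48 genes and all lists were chosen with earlier results of these data known.

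Counts were fitted with edgeR 4.0.16 in R 4.3.3 (TMM factors, filterByExpr by group, quasi-likelihood test, Benjamini-Hochberg adjustment over the 19332 genes tested, called at an adjusted p under 0.05), with all 31 libraries of 7 groups in 1 fit. The scripts were tested on simulated data. P-values measure the spread between nerve pieces. The comparisons share groups, so their results are not independent. No pair of libraries had identical counts, and the lowest chi-square per gene between replicates was 8.73. Exon lengths and overlaps came from GENCODE M21. Some genes of the marker lists are not reported here, and the sums and counts of markers leave them out. In each comparison up to 3 called genes per role with the largest absolute log2 fold change were named. Mki67, Mcm5, Ccnd1, Ccnd2, Cdkn1a, Cdkn1b and Cdkn2c were planned for all, but some of their values are not printed. Genes that complete a count of 5 or fewer were added after their values were seen. Correlations of deviations from the group means were 0.131 to 0.262 in 4 same-numbered pairs of olfactory nerve and outer ONL. For other numbers they were -0.234 to 0.226, so the ranges overlap. Same-numbered pairs of olfactory nerve and inner ONL ran from -0.029 to 0.167. Same-numbered pairs of outer and inner ONL ran from -0.071 to 0.189, and pairs with trigeminal nerve from -0.147 to 0.121. These values do not settle a pairing by number, and for trigeminal nerve the block has no basis in them. Replicate number was also fitted as a block. Alternatives were total count and upper-quartile scaling, other filters, an adjusted p under 0.01, DESeq2 1.42.0, grouping by label, E16.5 libraries alone, the block and leaving out each library. The fit of the 8 nerve and outer ONL libraries was added after the data were seen. Counts recovered per library limit the precision, and the library with 3512627 counts is the least precise.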

Additional observations from a re-analysis of the deposited data

Results flagged for a closer look

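5 of 66 sets of replicate values held a library far from the others by Dixon's criterion, which chance gives for about 1 in 20. Ccnd2 was at 1166 CPM in E16.5 olfactory nerve replicate 2, where the other 3 libraries had 581 to 676 CPM. Mki67 was at 161 CPM in inner ONL replicate 1 (others 271 to 287 CPM). Cdkn1a was at 58.1 CPM in the library of E13.5 olfactory nerve that is labelled E13.5 ONL replicate 1 (others 69.6 to 75.8 CPM). Cdkn1b was at 19.3 CPM in the library of E13.5 ONL that is labelled E11.5 olfactory nerve replicate 3 (others 13.0 to 13.9 CPM), and at 9.75 CPM in outer ONL replicate 3 (others 11.8 to 12.0 CPM).

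The change from E13.5 to E16.5 differed between ONL and nerve by the test of the difference itself for 34 of the 48 genes (5.59% of all genes). On the log2 scale the differences of the named mitosis genes were 1.46 for Nusap1, 1.34 for Ube2c, 1.27 for Ccnb1 and 0.95 for Mki67. They were 1.20 for Mcm3, 1.19 for Cdc6, 1.16 for Rrm1 and 1.10 for Mcm5, and 1.55 for E2f2, 1.14 for Ccne2 and 1.11 for E2f8. By label, 13 genes were called in favour of ONL (6.83% of all genes) and 2 in favour of nerve (5.71%). Ube2c, Mcm3, Mcm5, Cdc6, Rrm1 and E2f2 were then not called.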

How the results depend on the processing

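Of 127 results for single genes, 57 kept their direction and call under every alternative run. Grouping the early libraries by label moved most: 1 of the 48 was then lower from E11.5 to E13.5, 6 lower in E13.5 ONL against nerve, 1 higher in nerve from E13.5 to E16.5, 12 lower in olfactory against trigeminal nerve, 0 higher and 1 lower in inner against outer ONL, 3 higher in outer ONL against trigeminal nerve, 19 higher and 4 lower in ONL from E13.5 to E16.5, and 13 and 2 for the difference of stage changes. It reversed, in E13.5 ONL against nerve, Mcm5 (0.087), Cdc6 (0.47), Cdkn1a (0.52) and Cdkn1b (-0.53), from E11.5 to E13.5 Plk1 (0.65), Mcm3 (0.24), Mcm5 (0.34), Cdt1 (0.24), Ung (0.074), Cdkn1a (1.33) and Cdkn1b (-0.38), in nerve to E16.5 Ccnd2 (-0.094), in ONL to E16.5 Ccnd2 (0.53), Cdkn1a (-1.45) and Cdkn1b (0.50), and in the difference of stage changes Ccnd1 (-0.040), Ccnd2 (0.62), Cdkn1a (-1.27) and Cdkn1b (0.59). At an adjusted p under 0.01 by edgeR's quasi-likelihood test, 16 were higher in outer ONL against nerve, 1 lower in inner against outer ONL, 8 lower in olfactory and 2 higher in outer ONL against trigeminal nerve, 1 higher and 17 lower in E13.5 ONL, 5 lower from E11.5 to E13.5 and 8 lower in nerve to E16.5. Total count scaling gave 19 higher in outer ONL against nerve, 2 higher and 6 lower in olfactory against trigeminal nerve. In E13.5 ONL against nerve total count scaling gave 1 higher (2680 of all 19332 genes). It moved the median of all genes from 0.01 to -0.13 in outer ONL against nerve (1427 genes higher and 2758 lower, from 1974 and 2282), to 0.24 in olfactory against trigeminal nerve (3770 and 1096, from 2513 and 2050) and to 0.13 in outer ONL against trigeminal nerve. Upper-quartile scaling gave 11 lower in olfactory against trigeminal nerve (1524 of all 19332 genes) and 1 higher in E13.5 ONL (2841). Without a filter 1 was higher in E13.5 ONL and 3 in outer ONL against trigeminal nerve, and DESeq2 called 1 higher in nerve to E16.5. The cause of these changes was not tested. Shares over all genes are not given for the counts at an adjusted p under 0.01, without a filter or by DESeq2. Those for grouping by label are given with each comparison above.

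When E16.5 libraries were fitted with their replicate number as a block, 29 were higher (10.7% of all genes) and 3 lower (16.0%) in outer ONL against nerve. That fit gave 1 and 2 in inner against outer ONL, 1 and 20 in olfactory and 5 and 5 in outer ONL against trigeminal nerve. The fit of the 8 nerve and outer ONL libraries with the block gave 38 (15.3% of all genes) and 3 (16.2%). Shares over all genes are not given for the other counts of E16.5 libraries fitted alone, with or without the block. Cdkn1b reversed in outer ONL against nerve under total count scaling (-0.078), with E16.5 libraries alone (-0.013) and with the block (-0.0075), Ccnd2 in inner against outer ONL with the block (0.0011), and Cdkn1b in nerve to E16.5 without a filter (0.0042) and by DESeq2 (0.047). Without the block, a fit of E16.5 libraries alone gave 29 and 3, 1 and 2, 1 and 19, and 6 and 5, and among genes named by the rule the block changed the call of Cdt1 in olfactory against trigeminal nerve (adjusted p = 0.0583 without and 0.0364 with it, edgeR's quasi-likelihood test).

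Leaving out 1 library at a time gave 8 to 29 higher and 2 to 3 lower in outer ONL against nerve, 1 to 1 and 1 to 2 in inner against outer ONL, 1 to 1 and 9 to 17 in olfactory and 2 to 5 and 3 to 4 in outer ONL against trigeminal nerve, 1 to 2 and 19 to 27 in E13.5 ONL against nerve, 8 to 12 and 5 to 11 from E11.5 to E13.5, 0 to 1 and 8 to 15 in nerve to E16.5, 28 to 35 and 0 to 0 in ONL to E16.5, and 30 to 35 and 0 to 0 for the difference of stage changes. Log2 fold changes then crossed 0 for Ccnd2 in nerve to E16.5 (-0.095 to 0.36) and in inner against outer ONL (-0.16 to 0.044), Cdkn1b in nerve to E16.5 (-0.067 to 0.13), inner against outer ONL (-0.061 to 0.19) and outer ONL against nerve (-0.068 to 0.13), Mcm5 from E11.5 to E13.5 (-0.28 to 0.10) and Mki67 in inner against outer ONL (-0.18 to 0.055).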
